A study of Mus musculus with 4 samples.

Results

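The glutathione S-transferases and UDP-glucuronosyltransferases, the main conjugating enzymes of xenobiotic metabolism, were measured by RNA sequencing of mouse intestinal organoids after irradiation. The rule took protein-coding genes named Gst, Mgst or Ugt with a class letter or a number that had at least 1 count in any library, and it used no difference between the groups. This gave 44 genes of the 26144 with a count, 25 glutathione S-transferases and 19 UDP-glucuronosyltransferases. At the edge of the rule, Ugt2a2 entered with 1 count in all, and Ugt2a1, Ugt3a1 and Ugt3a2 were listed at 0 counts in every library. Of the 44, 37 had enough counts to be tested.

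Organoids, epithelial cultures that form crypt-like and villus-like domains, came from the intestine of wild type C57BL/6 mice, 8 to 12 weeks old. All received 8 Gy of irradiation, and RNA was taken 36 hours later from organoids given SGC-CBP30 (2 libraries) or vehicle (2 libraries). SGC-CBP30 is a small molecule that occupies the bromodomain of the acetyltransferases CBP and p300, the domain that binds acetylated lysine. The second SGC-CBP30 library has SGC-CBP31 in its treatment label and was grouped by its title. Culture without irradiation was not analysed here, and the labels do not say whether the 2 libraries of a group are separate cultures or animals, so each p-value rests on the spread of these libraries alone, which may be technical.

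Glutathione S-transferases join the thiol of glutathione to electrophilic drugs, toxins and lipid peroxidation products. The soluble enzymes fall into classes named by Greek letters, and a separate group (Mgst1 to Mgst3 in the mouse) sits in membranes. UDP-glucuronosyltransferases lie in the endoplasmic reticulum and transfer glucuronic acid from UDP-glucuronate to bilirubin, steroids, bile acids and drugs. Conjugates of either kind leave the cell through efflux pumps, and in the gut the enterocyte is the main cell that carries out these reactions.

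Total counts ran between 16433117 and 18087250 per library, and 20980 to 21933 genes had a count. Epithelial markers (Epcam, Cdh1, Krt8, Vil1, Cdx2 and others) summed to 9798 and 9050 CPM with SGC-CBP30 and 7801 and 7870 CPM with vehicle. CPM are counts scaled to library size with TMM factors. Of these 9 markers the keratin genes Krt8, Krt18 and Krt19 were called higher by the test described below. Cdx2 was called lower, and 5 were not called. That is 44.4% called, beside 38.0% of all genes averaging 3 or more in log2 CPM. Krt8 alone had 3028 and 2842 CPM with SGC-CBP30 against 2094 and 2096 CPM with vehicle. Markers of mesenchyme summed to 13.5 and 11.0 CPM with SGC-CBP30 and 17.1 and 17.8 CPM with vehicle, those of immune cells to 3.82 and 3.42 CPM with SGC-CBP30 and 7.42 and 5.14 CPM with vehicle, and those of endothelium to under 2 CPM in every library. Cd3g was at 0. In the mesenchyme sum, Vim alone had 10.1 and 9.11 CPM with SGC-CBP30 against 15.6 and 16.6 CPM with vehicle. The collagen markers Col1a1, Col1a2 and Col3a1 went the other way, with at most 16 counts in any library. Among the 14 enterocyte markers, 7 were called lower and 2 higher, 64.3% beside 38.0% of all genes averaging 3 or more in log2 CPM. Their sum was 38530 and 36220 CPM with SGC-CBP30 against 47350 and 47670 CPM with vehicle. Within it, Sis alone had 6787 and 7781 CPM with SGC-CBP30 against 15130 and 15100 CPM with vehicle. The 2 enterocyte markers called higher were Apoa4 and Krt20. Apoa4 had 6193 and 5326 CPM with SGC-CBP30 against 4158 and 4376 CPM with vehicle. Alpi, Vil1, Mttp, Apoa1 and Fabp1 were not called. Of 10 markers of secretory and stem cells 2 were called higher and 3 lower (50% called, beside the same 38.0%). These 10 summed to 4315 and 4017 CPM with SGC-CBP30 and 4781 and 4669 CPM with vehicle. Among them the stem cell marker Olfm4 had 54.5 and 56.6 CPM with SGC-CBP30 against 204.5 and 178.7 CPM with vehicle, and Lgr5 45.8 and 50.8 CPM with SGC-CBP30 against 33.7 and 31.8 CPM with vehicle. The part of these markers in the results below was not tested. In these bulk libraries, fewer cells of a type and less RNA per cell cannot be told apart.

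Between SGC-CBP30 and vehicle, 20 of the 37 tested members changed (54.1%), 8 higher and 12 lower, by edgeR's quasi-likelihood test at a Benjamini-Hochberg adjusted p under 0.05. Over all 14684 genes tested, 30.0% changed, 13.6% higher and 16.3% lower. Members were mostly abundant genes, however: 32 averaged 3 or more on the log2 CPM scale, and 20 of those changed (62.5%), against 38.0% of all genes at that level. The median log2 fold change of the tested members was -0.10, beside 0.010 for all genes, and the median size without sign was 0.37 beside 0.25. Changes of at least 2-fold were found for 6 members (Gstm1, Gstm3, Gstm4, Ugt1a9, Ugt2a3 and Ugt2b36), where the share among all genes was 5.93%. SGC-CBP30 and vehicle values did not overlap for 27 of the 37, against 63.1% of all genes.

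The authors' deposited table gives 19 members an adjusted p under 0.05, where 11.4% of all genes with a value there have one. All 19 are among the 20 called by edgeR, each with the same direction. Gstt2 is the exception, at 0.0616 in the authors' deposited table.

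Of the 23 tested glutathione S-transferases 7 rose, 8 fell and 8 missed the threshold, a share of 65.2% called beside 30.0% of all genes. All 23 averaged 3 or more on the log2 CPM scale, where 38.0% of all genes changed. Of the 14 tested UDP-glucuronosyltransferases 1 rose, 4 fell and 9 missed the threshold. Their share was 35.7%, beside 30.0% of all genes. Among the 9 of them that averaged 3 or more on the log2 CPM scale 5 changed (55.6%), beside 38.0% of all genes at that level. Without SGC-CBP30 replicate 1, 8 of them were called, 3 higher and 5 lower. The glutathione S-transferases called numbered 12 to 14 with any 1 library left out, and over all genes 2899 were called without vehicle replicate 2 against 4401 with every library.

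**Figure D1:**
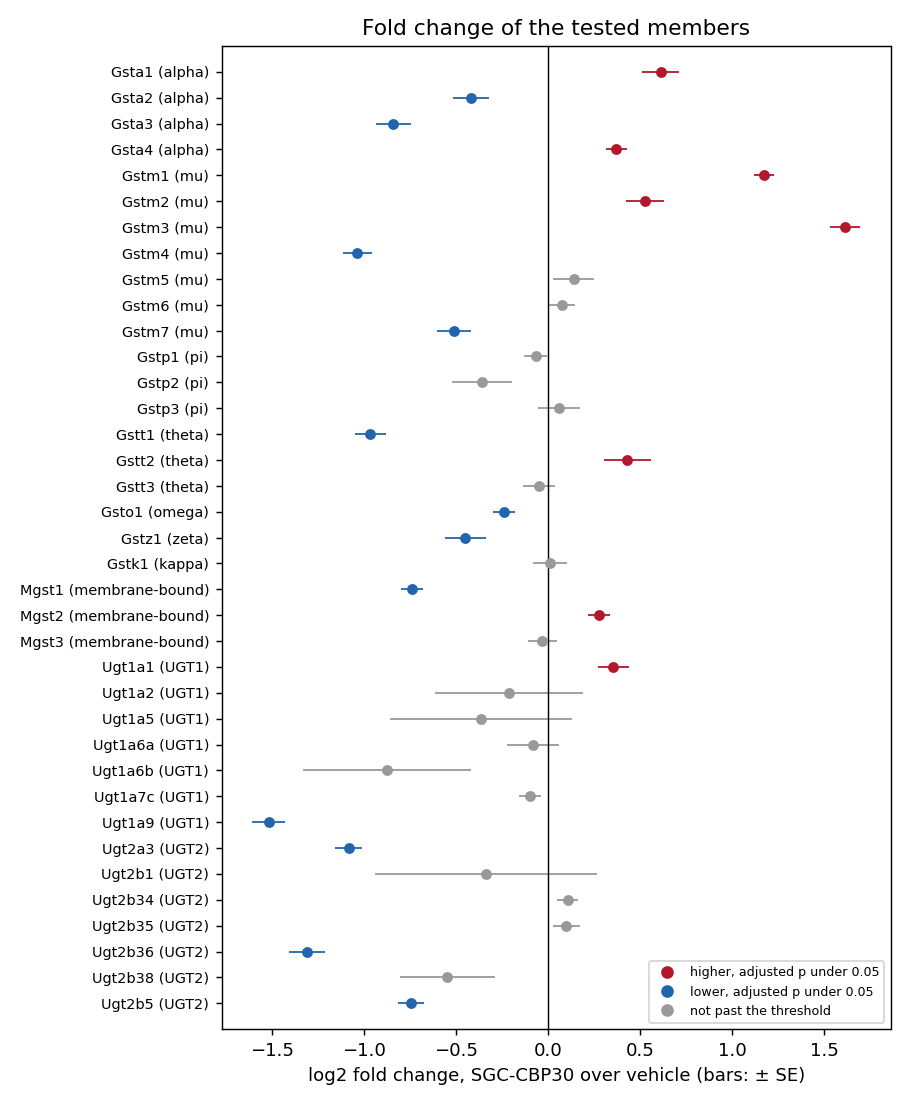
Log2 fold change (SGC-CBP30 over vehicle) of each of the 37 tested members, with bars of 1 standard error, grouped by class; red and blue mark members past the threshold. Gstm3 at 1.61 and Gstm1 at 1.17 lie furthest to the right and Ugt1a9 at -1.52 furthest to the left.

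Within the glutathione S-transferases the summed level was higher and its makeup differed. Summed FPKM, the authors' value per gene length and library size, was 6284 and 5905 in SGC-CBP30 libraries, against 4002 and 3906 in vehicle libraries. The mu class alone summed to 3148 and 3159 FPKM with the inhibitor, against 1393 and 1250 FPKM with vehicle. Gstm1 and Gstm3 together took 47.6% and 51.0% of the family's FPKM with SGC-CBP30 and 30.3% and 27.7% with vehicle. For the UDP-glucuronosyltransferases the summed level was 556 and 588 FPKM in SGC-CBP30 libraries, below the 655 and 661 FPKM of vehicle libraries. These sums are descriptions and were not tested.

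**Figure D2:**
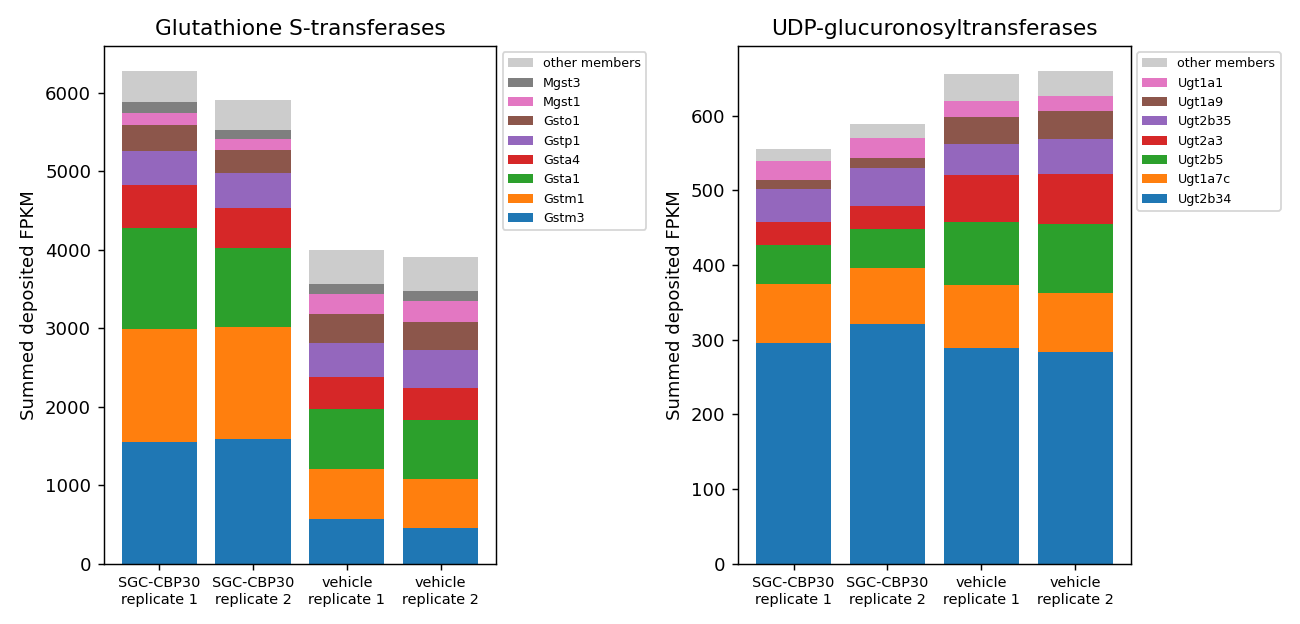
Summed deposited FPKM per library, stacked by gene, for glutathione S-transferases (left) and UDP-glucuronosyltransferases (right). The left bars reach 6284 and 5905 FPKM with SGC-CBP30 against 4002 and 3906 FPKM with vehicle, mostly through Gstm3 and Gstm1; in the right bars Ugt2b34 is the largest block in all 4 libraries.

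The mu class held the 2 largest rises and the largest fall among the glutathione S-transferases that were called. Its 7 genes stand side by side on chromosome 3 (GRCm38, 107895821 to 108044894, 149.1 kb), and all 7 were tested. Of these 3 rose, 2 fell and 2 missed the threshold. That is 71.4% called, beside 38.0% of all genes averaging 3 or more in log2 CPM. Mu enzymes conjugate epoxides and other electrophiles in liver and gut.

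Gstm3 (ENSMUSG00000004038, chromosome 3, 107963696 to 107969283, minus strand) had 2050 and 2090 CPM in SGC-CBP30 libraries, against 751 and 602 CPM in vehicle libraries. The groups lay far apart, and the vehicle libraries were the less alike. This is 3.06-fold higher with the inhibitor, a log2 fold change of 1.61 ± 0.08 (SE; edgeR adjusted p = 1.7e-09). The size was 1.62 and 1.60 with SGC-CBP30 replicate 1 or 2 left out, but with only 1 inhibitor library the call was lost (adjusted p = 0.236 and 0.232).

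Gstm1 (ENSMUSG00000058135, chromosome 3, 108012255 to 108017973, minus strand) reached 2122 and 2116 CPM with the inhibitor, against 958 and 921 CPM with vehicle. Replicates agreed closely on either side, and Gstm1 was 2.26-fold higher (1.17 ± 0.06 on the log2 scale, edgeR adjusted p = 2.55e-14). Per length these were the most abundant members with the inhibitor, while with vehicle Gsta1 was highest at 750 ± 4.83 FPKM (SD, n = 2). Gstm3 averaged 1571 ± 20.7 FPKM and Gstm1 1431 ± 3.54 FPKM with SGC-CBP30, against 513 ± 78.1 and 634 ± 15.3 FPKM with vehicle (SD, n = 2).

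Gstm2, which lies between them, had 47.8 and 42.4 CPM in SGC-CBP30 libraries and 33.4 and 29.1 CPM in vehicle libraries. It rose by 0.53 ± 0.10 on the log2 scale (edgeR adjusted p = 2.77e-04). Gstm4 ran the other way at 44.2 and 40.8 CPM with SGC-CBP30, against 89.4 and 85.1 CPM with vehicle. It is the outermost gene of the cluster next to Gstm1, and fell by 1.04 ± 0.08 on the log2 scale (edgeR adjusted p = 2.16e-10). Gstm7 fell too, with 38.6 and 33.4 CPM in SGC-CBP30 libraries against 52.4 and 50.2 CPM in vehicle libraries (log2 fold change -0.51 ± 0.09, edgeR adjusted p = 1.6e-04). Gstm5 (0.14 ± 0.11) and Gstm6 (0.075 ± 0.072) were not past the threshold.

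The DNA just before the start of 3 of these neighbours is shown because the genes moved in opposite directions although they stand side by side. Each sequence is from RefSeq (GRCm38.p6, minus strand, 5′ to 3′) and ends where the deposited gene begins; Gstm1 is chr3:108017974-108018223, Gstm3 chr3:107969284-107969424 and Gstm4 chr3:108044895-108045109. Capitals mark GCGTG, the core bound by the aryl hydrocarbon receptor.
Gstm1: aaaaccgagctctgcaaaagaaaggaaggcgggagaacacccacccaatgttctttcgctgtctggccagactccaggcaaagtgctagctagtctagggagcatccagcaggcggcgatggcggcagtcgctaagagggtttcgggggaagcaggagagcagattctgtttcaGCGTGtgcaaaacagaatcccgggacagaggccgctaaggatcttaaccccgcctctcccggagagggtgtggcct
Gstm3: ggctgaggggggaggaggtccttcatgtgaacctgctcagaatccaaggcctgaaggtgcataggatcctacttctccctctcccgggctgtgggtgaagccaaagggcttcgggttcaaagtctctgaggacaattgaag
Gstm4: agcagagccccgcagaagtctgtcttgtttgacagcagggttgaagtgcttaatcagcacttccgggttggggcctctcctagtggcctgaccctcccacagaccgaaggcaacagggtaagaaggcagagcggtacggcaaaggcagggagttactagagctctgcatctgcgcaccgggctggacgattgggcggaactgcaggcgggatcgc
Of 5 motifs searched on either strand, the stretch before Gstm1 held 1 GCGTG and those before Gstm3 and Gstm4 held none. Besides GCGTG these were TGACNNNGC, the antioxidant response element core, and the TATA box TATAAA. The others were GTTAAT and, as a half-site of nuclear receptors, AGTTCA. RefSeq lists a further start for Gstm1 155 bases downstream, with a TATAAA 30 bases before it. A match is a description of letters and no evidence of binding.

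**Figure D3:**
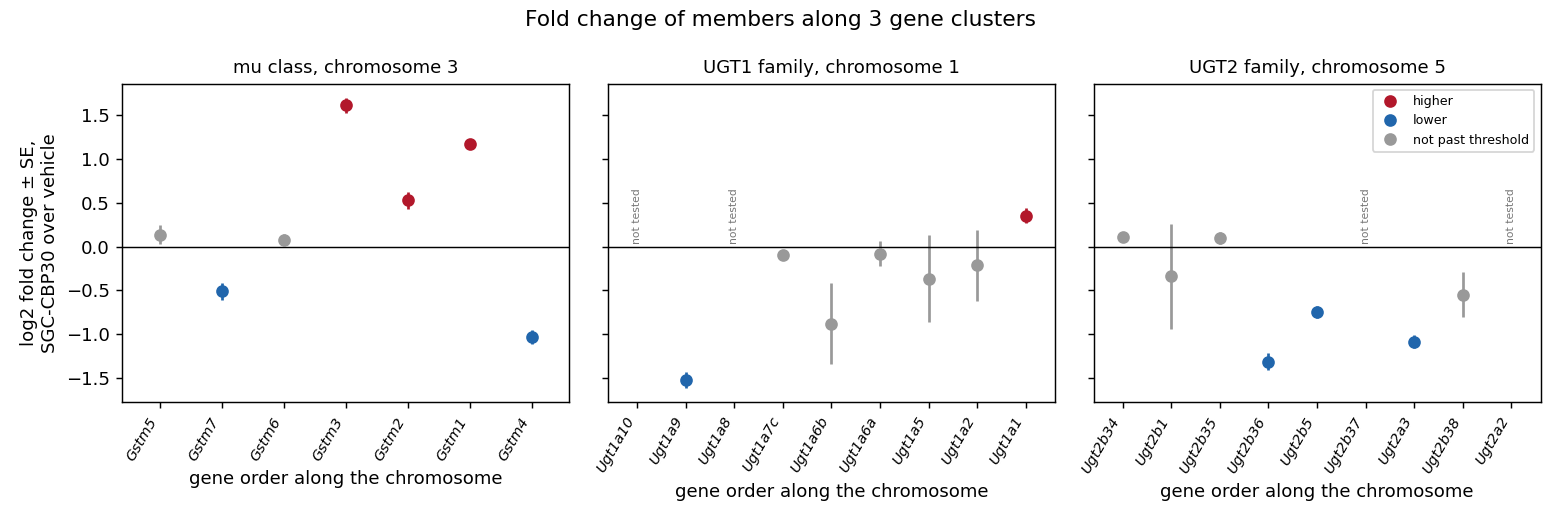
Log2 fold change with 1 standard error for members in their order along 3 gene clusters; red and blue mark members past the threshold, grey those that are not, and members with too few counts are written as not tested. In the mu cluster Gstm3, Gstm2 and Gstm1 lie above 0 and the outer neighbour Gstm4 at -1.04; in the UGT1 cluster Ugt1a9 and Ugt1a1 lie on opposite sides.

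Close copies limit these counts. Of all 50-base windows in the transcripts of Gstm3, 28.8% also occur in transcripts of another gene, mostly the processed pseudogene Gm8834, and for Gstm1 18.9%, mostly the processed pseudogene Gstm2-ps1. Gm8834 had 20.5 and 22.8 CPM with SGC-CBP30 against 9.91 and 7.02 CPM with vehicle (log2 fold change 1.35 ± 0.15, edgeR adjusted p = 2.19e-07). Gstm2-ps1 had 48.3 and 54.2 CPM with SGC-CBP30 against 20.7 and 21.2 CPM with vehicle (1.29 ± 0.10, edgeR adjusted p = 3.05e-10). Gstm4 shared no window with any other gene, and Gstm7 0.532% of its windows. How reads that fit several places were counted is not given in the sources used here.

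All 4 alpha class members, the genes named Gsta, changed, where 38.0% of all genes averaging 3 or more in log2 CPM did. The 2 more abundant ones rose and the 2 less abundant ones fell. Alpha enzymes reduce lipid hydroperoxides and conjugate bulky electrophiles, and Gsta4 is known for 4-hydroxynonenal, a product of lipid peroxidation.

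Gsta1 (ENSMUSG00000074183, chromosome 9, 78230656 to 78242684, plus strand) had 1237 and 968 CPM in SGC-CBP30 libraries, against 727 and 716 CPM in vehicle libraries. The inhibitor libraries differed from each other, yet lay above vehicle, and the log2 fold change was 0.61 ± 0.10 (edgeR adjusted p = 0.00215). Its counts are uncertain, since 90.5% of its 50-base windows occur in another gene, most of them in the protein-coding Gm3776. That copy had 247 and 229 CPM with SGC-CBP30, against 192 and 136 CPM with vehicle, and missed the threshold (0.54 ± 0.22, edgeR adjusted p = 0.205).

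Gsta4 shared no window with another gene. It had 698 and 660 CPM with the inhibitor, against 530 and 522 CPM with vehicle, a rise of 0.37 ± 0.06 on the log2 scale (edgeR adjusted p = 1.92e-05). Gsta2, whose windows are shared to 49.8%, chiefly with Gsta1, fell to 31.5 and 29.3 CPM in SGC-CBP30 libraries, against 40.6 and 40.7 CPM in vehicle libraries (-0.42 ± 0.10, edgeR adjusted p = 0.00195). Gsta3 stands apart from the others on chromosome 1, and 0.273% of its windows are shared. It had 27.5 and 28.5 CPM with SGC-CBP30 against 51.4 and 49.1 CPM with vehicle, 1.79-fold lower (edgeR adjusted p = 1.49e-07). Gsta3 is known in the mouse for conjugating aflatoxin epoxide.

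The pi class did not pass the threshold in any of its 3 genes. Gstp1, the major pi enzyme, had 331 and 334 CPM with SGC-CBP30 and 330 and 367 CPM with vehicle, overlapping groups with a log2 fold change of -0.068 ± 0.062 (edgeR adjusted p = 0.455). Per length it was an abundant member, at 437 ± 2.30 FPKM with SGC-CBP30 and 458 ± 36.0 FPKM with vehicle (SD, n = 2). Its share of the family's FPKM was 6.93% and 7.43% with the inhibitor, against 10.8% and 12.4% with vehicle. Gstp2 (-0.36 ± 0.16) and Gstp3 (0.060 ± 0.115) were not past the threshold either, and Gstp2 shares 54.3% of its windows, mostly with Gstp1.

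Theta class genes, whose enzymes also act on small halogenated compounds, moved in either direction within 63.3 kb of chromosome 10. Gstt1 had 41.0 and 36.5 CPM in SGC-CBP30 libraries, against 72.3 and 79.2 CPM in vehicle libraries. It was 1.95-fold lower (log2 fold change -0.97 ± 0.09, edgeR adjusted p = 2.93e-09). Gstt3, its neighbour, had overlapping values of 49.4 and 47.5 CPM with SGC-CBP30 against 48.8 and 51.6 CPM with vehicle (-0.050 ± 0.086, not past the threshold). Gstt2 had 42.6 and 30.9 CPM with SGC-CBP30 and 28.9 and 25.5 CPM with vehicle. Its rise of 0.43 ± 0.13 (edgeR adjusted p = 0.0146) leaned on the first inhibitor library: without SGC-CBP30 replicate 1 it was 0.18 (adjusted p = 0.325). The Gstt2 call was also lost with DESeq2, at an adjusted p of 0.0627, and when vehicle replicate 2 was left out, at 0.0656. Gstt4 had 3 counts, all in vehicle replicate 2.

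The omega, zeta and kappa classes had 1 tested gene each. Gsto1, an omega enzyme with thioltransferase activity, had 641 and 581 CPM with SGC-CBP30, against 725 and 719 CPM with vehicle. The groups were apart, and the fall was 0.24 ± 0.06 on the log2 scale (edgeR adjusted p = 0.00315), lost at about the same size when either vehicle library was left out (adjusted p = 0.0893 for replicate 1 and 0.0790 for replicate 2). Gstz1, which acts in tyrosine breakdown as maleylacetoacetate isomerase, had 25.5 and 27.9 CPM with SGC-CBP30 against 40.0 and 32.8 CPM with vehicle (-0.45 ± 0.11, edgeR adjusted p = 0.00316). Without vehicle replicate 1 its log2 fold change was -0.30 and the call was lost (adjusted p = 0.139). Gstk1, the kappa enzyme of mitochondria and peroxisomes, had overlapping values of 40.1 and 41.6 CPM with SGC-CBP30 and 40.9 and 40.3 CPM with vehicle (0.0085 ± 0.0914). Gsto2 had 9 and 9 counts with the inhibitor and 2 and 8 with vehicle, too few to test.

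The 3 membrane-bound enzymes each behaved differently. Mgst1, an abundant enzyme of the endoplasmic reticulum and outer mitochondrial membrane, had 325 and 297 CPM in SGC-CBP30 libraries, against 514 and 525 CPM in vehicle libraries. The gap exceeded the spread of either group, and Mgst1 was 1.67-fold lower (-0.74 ± 0.06, edgeR adjusted p = 5.76e-10). Mgst2, which can also make leukotriene C4, had 294 and 289 CPM with SGC-CBP30 and 243 and 238 CPM with vehicle. It rose by 0.28 ± 0.06 (edgeR adjusted p = 8.85e-04), which lost its call when vehicle replicate 2 was left out (adjusted p = 0.0692). Mgst3 had 152 and 123 CPM with the inhibitor, on either side of the 140.3 and 140.5 CPM of vehicle, and was not past the threshold (-0.032 ± 0.079). Left with 1 inhibitor library its log2 fold change was -0.19 (adjusted p = 0.0130) without SGC-CBP30 replicate 1 and 0.11 (adjusted p = 0.182) without replicate 2.

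**Figure D4:**
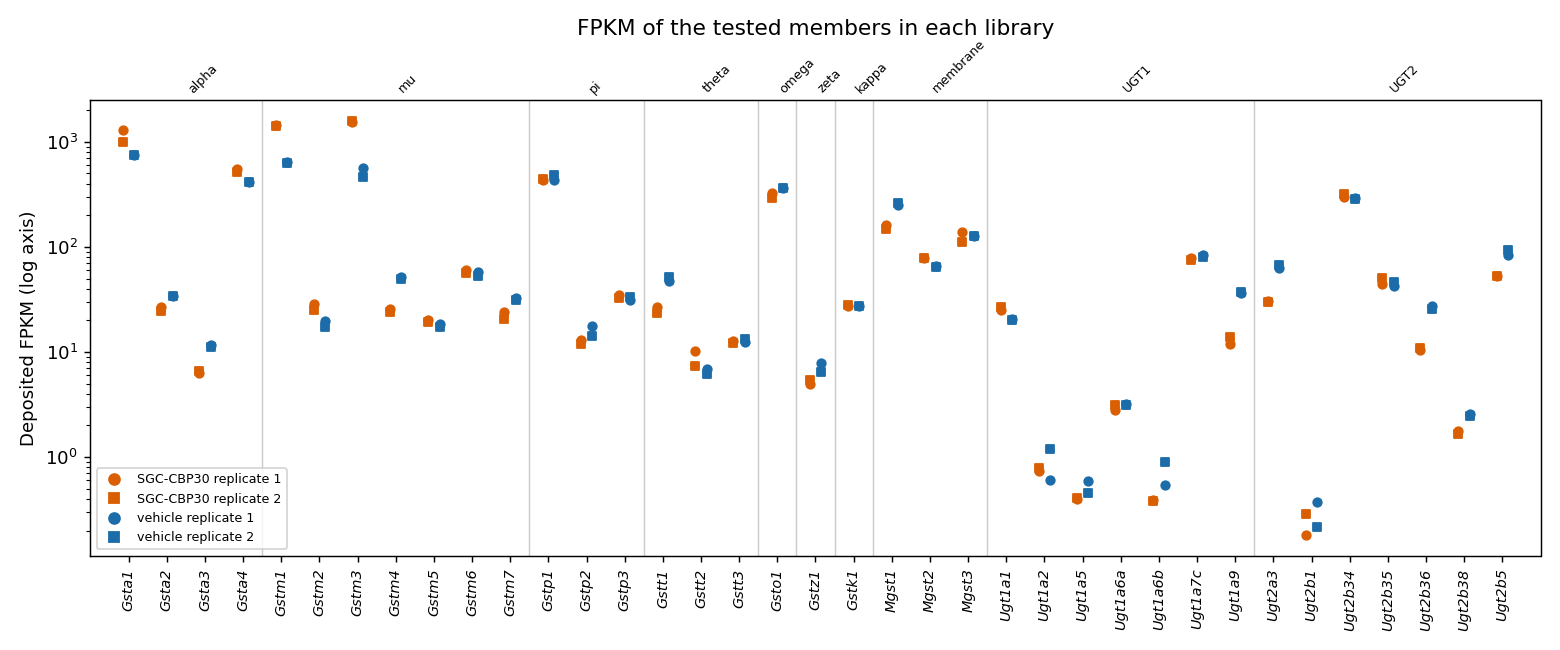
Deposited FPKM on a log axis for each tested member in each library, with SGC-CBP30 in orange to the left of vehicle in blue; circles are replicate 1 and squares replicate 2. Gstm3 and Gstm1 are the highest points with SGC-CBP30 at 1571 and 1431 FPKM on average, and Ugt2b1 is the lowest at 0.234 FPKM.

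The UGT1 family is built as 1 locus on chromosome 1 (GRCm38, 88055388 to 88220002, plus strand), in which alternative first exons, each with its own promoter, are joined to a common set of later exons. The first exon sets the substrate. Reads in the common exons cannot name a gene, and 52.1% to 80.2% of the 50-base windows of the 9 members were shared, so the values below depend on how the authors assigned such reads. Of 7 tested members 1 rose, 1 fell and 5 missed the threshold, a share of 28.6% called beside 30.0% of all genes. The locus summed to 431 and 424 CPM with SGC-CBP30, against 501 and 484 CPM with vehicle.

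Ugt1a7c was the most abundant of them per length, at 76.5 ± 3.0 FPKM with SGC-CBP30 and 81.8 ± 2.93 FPKM with vehicle (SD, n = 2). In CPM it had 333 and 316 with the inhibitor and 357 and 337 with vehicle, a log2 fold change of -0.098 ± 0.060 that did not pass the threshold (edgeR adjusted p = 0.244). It passed only without SGC-CBP30 replicate 1 (-0.14, adjusted p = 0.0170).

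Ugt1a9 (ENSMUSG00000090175, 88070800 to 88218997) had 26.0 and 30.6 CPM in SGC-CBP30 libraries, against 80.0 and 82.5 CPM in vehicle libraries. This was the largest fall of any member called, 2.87-fold (log2 fold change -1.52 ± 0.09, edgeR adjusted p = 1.56e-12). Ugt1a1 (ENSMUSG00000089960, 88211959 to 88218997), whose product conjugates bilirubin, ran the other way with 56.2 and 60.1 CPM with SGC-CBP30 against 46.1 and 44.9 CPM with vehicle. It was the one UDP-glucuronosyltransferase called higher (0.35 ± 0.08, edgeR adjusted p = 0.00226). Ugt1a6a had overlapping values of 12.3 and 13.6 CPM with SGC-CBP30 against 13.9 and 13.5 CPM with vehicle (-0.082 ± 0.143). Ugt1a2, Ugt1a5 and Ugt1a6b had 0.882 to 2.63 CPM in all libraries and were not past the threshold. Ugt1a8 and Ugt1a10 had 9 and 6 counts over all libraries and were not tested.

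The upstream sequences of Ugt1a9 and Ugt1a1 are shown because their separate promoters serve a locus in which they moved apart, and that of Ugt2a3 because it also fell. They are from RefSeq (GRCm38.p6), 5′ to 3′: Ugt1a9 chr1:88070529-88070778 and Ugt1a1 chr1:88211709-88211958 on the plus strand and Ugt2a3 chr5:87337196-87337445 on the minus strand. Capitals mark GTTAAT, on either strand, and AGTTCA.
Ugt1a9: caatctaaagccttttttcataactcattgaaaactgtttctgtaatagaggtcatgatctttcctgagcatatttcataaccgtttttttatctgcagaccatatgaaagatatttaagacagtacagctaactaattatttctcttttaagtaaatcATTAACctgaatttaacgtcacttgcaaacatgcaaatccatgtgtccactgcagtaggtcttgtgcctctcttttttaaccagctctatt
Ugt1a1: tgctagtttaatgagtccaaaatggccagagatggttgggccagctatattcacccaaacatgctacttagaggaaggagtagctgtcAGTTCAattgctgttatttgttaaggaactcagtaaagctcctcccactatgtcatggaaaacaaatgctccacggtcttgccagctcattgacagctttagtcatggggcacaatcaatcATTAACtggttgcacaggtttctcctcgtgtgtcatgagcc
Ugt2a3: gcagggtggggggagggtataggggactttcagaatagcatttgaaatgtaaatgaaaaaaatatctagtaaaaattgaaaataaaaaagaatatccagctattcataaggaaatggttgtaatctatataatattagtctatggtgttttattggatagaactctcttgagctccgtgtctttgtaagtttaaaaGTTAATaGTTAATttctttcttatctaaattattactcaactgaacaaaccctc
The motif GTTAAT stood 91 bases before the RefSeq start of Ugt1a9, 41 bases before that of Ugt1a1, and 54 and 47 bases before that of Ugt2a3. RefSeq lists 50 promoters for 41 of the members, and 6 of the 50 held it within 250 bases, where 6.43% of all 32851 listed promoters do. They belong to Gsta3, Ugt1a1, Ugt1a6a, Ugt1a9, Ugt1a10 and Ugt2a3. Of these 6 genes, Ugt1a1 rose, 3 fell, Ugt1a6a was not past the threshold and Ugt1a10 was not tested. AGTTCA, held by 11.8% of all listed promoters, occurred in 3 of the 50, GCGTG (28.2%) in 10, TGACNNNGC (10.2%) in 4 and TATAAA (12.4%) in 5. The only overlap between different motifs was in Gstm5, where a GCGTG lies within a TGACNNNGC.

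The UGT2 family, whose enzymes handle steroids, bile acids and drugs, lies on chromosome 5 (GRCm38, 86889767 to 87482260). Of 7 tested members 3 fell, 0 rose and 4 missed the threshold, where 16.3% of all genes fell. In either direction that is 42.9% called, beside 30.0% of all genes and 38.0% of those averaging 3 or more in log2 CPM. The 3 that fell lie in the middle of the cluster.

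Ugt2a3 had 65.3 and 64.3 CPM in SGC-CBP30 libraries, against 134 and 141 CPM in vehicle libraries. It was 2.12-fold lower (-1.08 ± 0.07, edgeR adjusted p = 1.19e-11). Ugt2b36 had 21.7 and 22.6 CPM with the inhibitor, against 56.7 and 53.2 CPM with vehicle, a fold of 2.48 downward (-1.31 ± 0.10, edgeR adjusted p = 1.01e-10). Groups of these genes were well separated, and at most 4.55% of their windows are shared with another gene.

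Ugt2b5 fell less, with 98.1 and 99.2 CPM with SGC-CBP30 against 158 and 173 CPM with vehicle (-0.74 ± 0.07, edgeR adjusted p = 5.63e-09). It shares 41.7% of its windows, mostly with Ugt2b38, which had 3.35 and 3.19 CPM with SGC-CBP30 and 4.93 and 4.64 CPM with vehicle and was not past the threshold (-0.55 ± 0.26).

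Ugt2b34 was the most abundant UDP-glucuronosyltransferase per length, at 309 FPKM on average with SGC-CBP30 and 286 FPKM with vehicle. It had 1281 and 1394 CPM with SGC-CBP30, against 1258 and 1225 CPM with vehicle. Its log2 fold change of 0.11 ± 0.06 missed the threshold (edgeR adjusted p = 0.180), although the groups did not overlap. It passed when scaled by library totals (0.18, adjusted p = 0.0165) and when SGC-CBP30 replicate 1 was left out (0.16, adjusted p = 6.61e-05). It made up 53.1% and 54.6% of the family's FPKM with SGC-CBP30, against 44.2% and 42.9% with vehicle. Ugt2b35 overlapped between the groups (0.099 ± 0.072) and passed only without SGC-CBP30 replicate 1 (0.19, adjusted p = 0.00905). Ugt2b1 had 0.470 to 0.963 CPM (-0.34 ± 0.60). Ugt2b37 and Ugt2a2, with 29 counts and 1 count in all, and Ugt8a, a galactosyltransferase of myelin lipids with 16 counts, were not tested.

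Genes that feed or follow these enzymes were read from lists, chosen with earlier results of these data known. Their shares stand beside 30.0% called over all genes, 13.6% higher and 16.3% lower. Among genes averaging 3 or more in log2 CPM, 38.0% were called. The glutathione supply list also holds genes of glutathione breakdown, such as Chac1 and Chac2. Of its 16 tested genes 2 rose and 8 fell (62.5% called, median log2 fold change -0.39 beside 0.010 for all genes). The 2 that rose were Gss, for glutathione synthetase (0.32 ± 0.07), and Chac1 (0.73 ± 0.20). Chac2 fell by 0.42 ± 0.14. Cth, which makes cysteine, fell by 1.18 ± 0.08 on the log2 scale, and the cystine carrier gene Slc7a11 by 0.93 ± 0.13. Their edgeR adjusted p values were 8.67e-12 and 4.25e-06. Gclc, the catalytic subunit of the first step of glutathione synthesis, had 140 and 146 CPM with SGC-CBP30, against 195 and 197 CPM with vehicle. It fell by 0.45 ± 0.06.

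Genes that process a glutathione conjugate to a mercapturate, or the mercapturate itself, formed a further list. Of its 10 tested genes 9 fell and 0 rose (90% called, median -0.57). Acy1, an aminoacylase that removes the acetyl group from N-acetylated cysteine conjugates, had 52.3 and 41.6 CPM with SGC-CBP30 against 127 and 124 CPM with vehicle (-1.42 ± 0.09, edgeR adjusted p = 3.48e-12). The membrane dipeptidase gene Dpep1 had 168 and 154 CPM with SGC-CBP30 against 379 and 381 CPM with vehicle (-1.24 ± 0.06, edgeR adjusted p = 8.06e-14). Anpep, also among the enterocyte markers, fell by 1.03 ± 0.06.

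Of 16 tested glutathione peroxidases and relatives outside the rule, Gstcd among them, 2 rose and 6 fell (50% called, median -0.34). The thiol enzyme genes Prdx6 and Glrx fell by 0.57 ± 0.06 and 0.67 ± 0.07, and Clic5, of a family with the glutathione S-transferase fold, by 0.84 ± 0.06.

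A list joined genes linked to UDP-glucuronate, the cosubstrate of glucuronidation, with genes of glucuronide cleavage. Of its 13 tested genes 3 rose and 4 fell (53.8% called, median -0.082). Ugdh, the enzyme that makes UDP-glucuronate, had 595 and 564 CPM with SGC-CBP30 against 678 and 730 CPM with vehicle (-0.28 ± 0.06, edgeR adjusted p = 6.91e-04), which lost its call when vehicle replicate 2 was left out (adjusted p = 0.116). Hk1, a hexokinase gene, rose by 0.93 ± 0.09, and the nucleotide carrier gene Slc35b1 fell by 0.35 ± 0.07.

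All 9 tested efflux pump genes changed, 5 higher and 4 lower (median 0.32). Abcc2, the apical exporter of glutathione and glucuronide conjugates, had 1481 and 1674 CPM with SGC-CBP30, against 807 and 777 CPM with vehicle. It rose by 0.99 ± 0.06 (edgeR adjusted p = 3.77e-12). Abcb1a, a P-glycoprotein gene, had 863 and 894 CPM with SGC-CBP30 against 481 and 460 CPM with vehicle (0.90 ± 0.06). Abcg2 fell, with 88.3 and 85.0 CPM with SGC-CBP30 against 127 and 127 CPM with vehicle (-0.55 ± 0.07).

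Transcription factors known to act on these families, with their partners, formed a list of 20 tested genes. Of these 1 rose and 8 fell (45% called, median -0.13). Nr1i2, the gene of the pregnane X receptor, had 115 and 110 CPM with SGC-CBP30 and 116 and 114 CPM with vehicle (-0.029 ± 0.069, edgeR adjusted p = 0.801). Its relative Nr1i3, the constitutive androstane receptor gene, had 12.8 and 12.0 CPM with SGC-CBP30 against 23.3 and 23.3 CPM with vehicle (-0.91 ± 0.13, edgeR adjusted p = 4.59e-06). Ahr (0.13 ± 0.09) and Hnf4a (0.14 ± 0.06) were not past the threshold, whereas Hnf4g fell by 0.72 ± 0.06 and Vdr, the vitamin D receptor gene, by 0.45 ± 0.06. Hnf4a passed when either SGC-CBP30 library was left out (adjusted p = 0.0399 for replicate 1 and 3.88e-04 for replicate 2) and with library totals (0.21, adjusted p = 0.00433).

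Nfe2l2, the gene of NRF2, the main activator of glutathione genes under oxidative stress, had 330 and 334 CPM in SGC-CBP30 libraries, against 529 and 550 CPM in vehicle libraries. It fell by 0.70 ± 0.06 (edgeR adjusted p = 6.36e-10). Of the 17 tested NRF2 regulators and targets 1 rose and 5 fell (median -0.059), a share of 35.3% called that is near the 30.0% of all genes. Gclc and Slc7a11, which fell, and Gclm and G6pdx are also in the glutathione supply list.

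**Figure D5:**
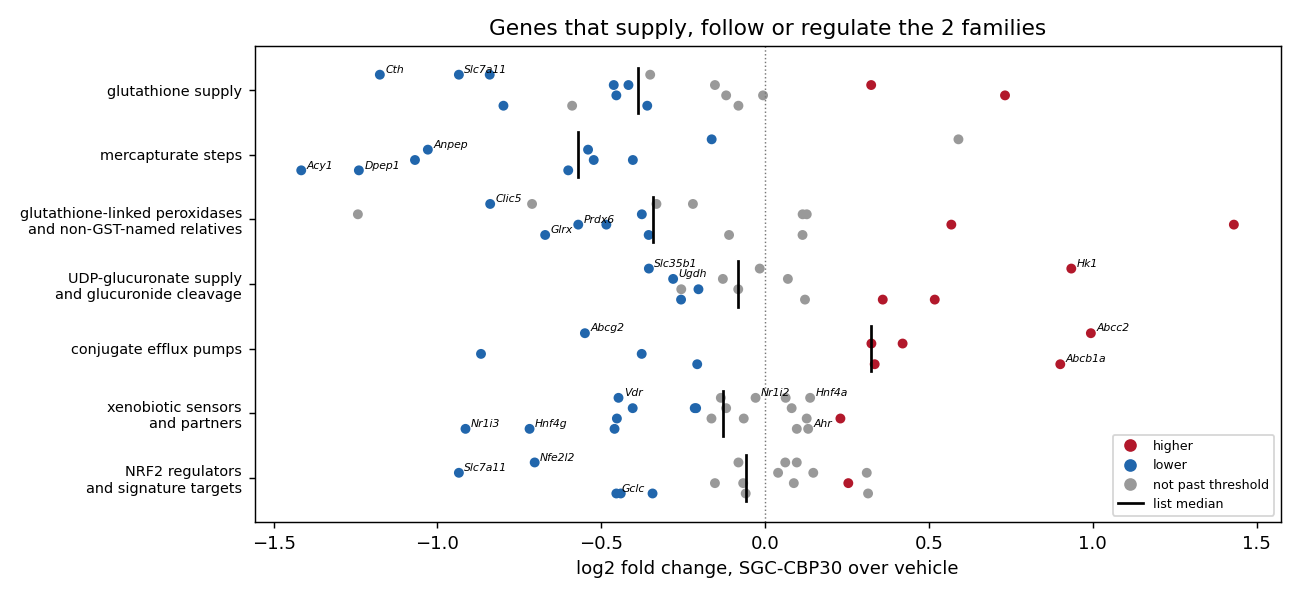
Log2 fold change (SGC-CBP30 over vehicle) of every tested gene in 7 lists, with the list median as a black bar; red and blue points passed the threshold. Mercapturate genes lie mostly to the left with a median of -0.57, and Abcc2 at 0.99 lies furthest right among the efflux pumps.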

How the data were processed

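All values came from 1 deposited table. Per the file headers, it holds whole-number counts per gene and library, not normalized, which entered the tests, and FPKM by the authors, used to compare genes per length. The authors' group means, on a normalized signal scale, were not used. The authors' deposited log2 fold change and p-value, of an unnamed test, served as a comparison. Named in the submitters' processing notes are featureCounts 1.5.0-p3, HISAT2 2.0.5, StringTie 1.3.3b and mm9, but 40 of the 44 members have the coordinates of GRCm38 in GENCODE M21. Not given in the sources used here: strand and multi-mapping settings. The table was held in part.

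Counts were tested with edgeR 4.0.16 (filterByExpr, TMM, robust quasi-likelihood, no covariate; R 4.3.3), checked on simulated data. The SE is the size of the log2 fold change divided by the square root of F. Alternatives included DESeq2 1.42.0. At these depths 3 counts equal 0.170 to 0.188 CPM, a floor that covers counting error only. Replicates differed beyond counting noise (chi-square per degree of freedom 6.76 with SGC-CBP30 and 3.07 with vehicle). Windows of 50 bases came from GENCODE M21 transcripts.

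Members and lists were chosen with earlier results of these data known. Any member could be named; full values went to called members averaging 3 or more in log2 CPM and the most abundant of each class. Of each list, up to 3 called genes of smallest p were named, with Nr1i2, Ahr, Nfe2l2 and Hnf4a; some genes that this rule names are not reported here.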

Additional observations from a re-analysis of the deposited data

How the results depend on the processing

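Over 10 alternatives, 12 to 15 glutathione S-transferases (12 to 14 with 1 library left out, 14 in DESeq2) and 5 to 8 UDP-glucuronosyltransferases were called, 8 without SGC-CBP30 replicate 1. Over all genes the count was 2722 in DESeq2 and 2899 to 4557 with 1 library left out; with library totals 60.2% of calls were higher, against 45.5% with TMM. Of 366 values for the 37 tested members, 343 kept direction and call, 9 lost the call, 5 gained it and 9 changed sign, all of the last in members not past the threshold. With 1 library left out, log2 fold changes ran from -0.62 to 0.33 for Ugt1a2, -0.70 to 0.10 for Ugt2b1, -0.019 to 0.032 for Gstk1, -0.19 to 0.11 for Mgst3, -0.14 to 0.015 for Gstp1 and -0.064 to 0.0026 for Nr1i2. With library totals Mgst3 became 0.040, Gstp1 0.0051, Gstt3 0.023 and Nr1i2 0.044, and with at least 50 counts in 2 libraries Gstk1 became -0.0063. The cause was not tested. Same-numbered libraries did not deviate together (correlation -0.024 across 14684 genes, which are not independent). With 2 libraries per group this cannot decide whether they share an animal, culture or batch. The fit with the replicate block called 4703 genes, 15 glutathione S-transferases and 5 UDP-glucuronosyltransferases. Depth limits the scarcest tested members, Ugt1a2, Ugt1a5, Ugt1a6b and Ugt2b1, whose standard errors were 0.40 to 0.60.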

Other observations

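The processed pseudogene Gstp-ps, not a member, had 63.1 and 59.5 CPM with SGC-CBP30 against 82.2 and 86.7 CPM with vehicle (log2 fold change -0.46 ± 0.08, edgeR adjusted p = 4.79e-05), while Gstp1 did not pass the threshold. Gstcd, named for its glutathione S-transferase C-terminal domain and outside the rule, had 12.7 and 13.6 CPM with SGC-CBP30 against 12.0 and 12.1 CPM with vehicle and was not past the threshold (0.13 ± 0.15).

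Among the liver-type markers, Cps1, an enzyme of ammonia disposal that the gut also makes, had 359 and 376 CPM with SGC-CBP30 against 914 and 879 CPM with vehicle (-1.29 ± 0.06, edgeR adjusted p = 9.19e-15). Alb stayed under 1 CPM in all 4 libraries and Fgb was at 0.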
